A study of Bos taurus with 6 samples.

Results

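Muscle stores fat in droplets inside its fibres and in fat cells that lie between them, and the genes described here make that fat and the sterols of its membranes. The list held 39 genes, and 36 of them were represented by at least 1 probe set annotated with that gene alone, out of 9155 genes represented in this way. FADS1, IDI1 and ABCA1 were not analysed here. The 36 genes had 55 probe sets, and each gene was described by its brightest one. Of the 36, 13 belong to fatty acid synthesis and desaturation, 6 regulate lipid synthesis, 3 assemble glycerolipids, 3 were grouped under NADPH supply and 11 act in sterol metabolism. The filter on dim probe sets removed OLR1, which left 35 genes tested.

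Fatty acid synthesis starts from acetyl-CoA, made by activating acetate or by splitting citrate that has left the mitochondrion. Acetyl-CoA carboxylase and fatty acid synthase then build palmitate with NADPH, and elongases and desaturases lengthen it and place double bonds. Acyltransferases join the fatty acids to a glycerol backbone to form triglyceride. Sterol regulatory element binding proteins switch on many of these enzymes and those of cholesterol synthesis, while liver X receptors respond to oxidised sterols. In cattle much of the body's fatty acid synthesis takes place in fat tissue.

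The tissue was the back muscle longissimus dorsi of male steers from a pair of breeds. There were 3 Japanese Black steers, a breed known for marbled meat, and 3 Holstein steers, a dairy breed, and all 6 had received energy-rich feed. Each animal's RNA was hybridised to its own Affymetrix array, and the values are linear signals in intensity units. The labels give no ages and no animals on another feed, so the comparison is of breeds under that feeding.

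Median signals of the arrays were 48.5 to 54.7, and the upper quartile was 205 in Japanese Black 3 against 172 to 181 in the other arrays. Of 10 muscle fibre markers on the array, none was listed at 0. Their summed signal was 123942 to 132621 in Japanese Black and 126480 to 128722 in Holstein. Differences are given on the log2(signal + 16) scale as Japanese Black minus Holstein, which understates the change of dim genes. Adjusted p-values come from limma and cover all 18012 probe sets tested, and 6 arrays limit the precision of every value.

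None of the 35 tested genes passed an adjusted p of 0.05 in limma, a threshold met by 0.0167% of all probe sets. Differences ranged from -0.47 for DHCR7 to 1.44 for NCEH1, with 16 genes above 0, against 51.0% of all probe sets, and 19 below. Their median was -0.04, or -0.02 with OLR1 included, beside 0.01 over all probe sets tested. At their brightest probe sets 3 genes had a limma unadjusted p under 0.05, NCEH1, SCD5 and ME1, all toward Japanese Black. In that direction lay 7.31% of all probe sets. Of the dimmer probe sets, those of NCEH1, toward Japanese Black, and SREBF2, toward Holstein, also had one. Toward Holstein 951 of the 18012 probe sets tested had a limma unadjusted p under 0.05. Both breeds lay apart without overlap for 6 genes, NCEH1, SCD5, ME1, DGAT1, ACACA and NR1H3, 4 of them toward Japanese Black, against 19.8% of all probe sets, so both shares of the list lay near their background.

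**Figure D1:**
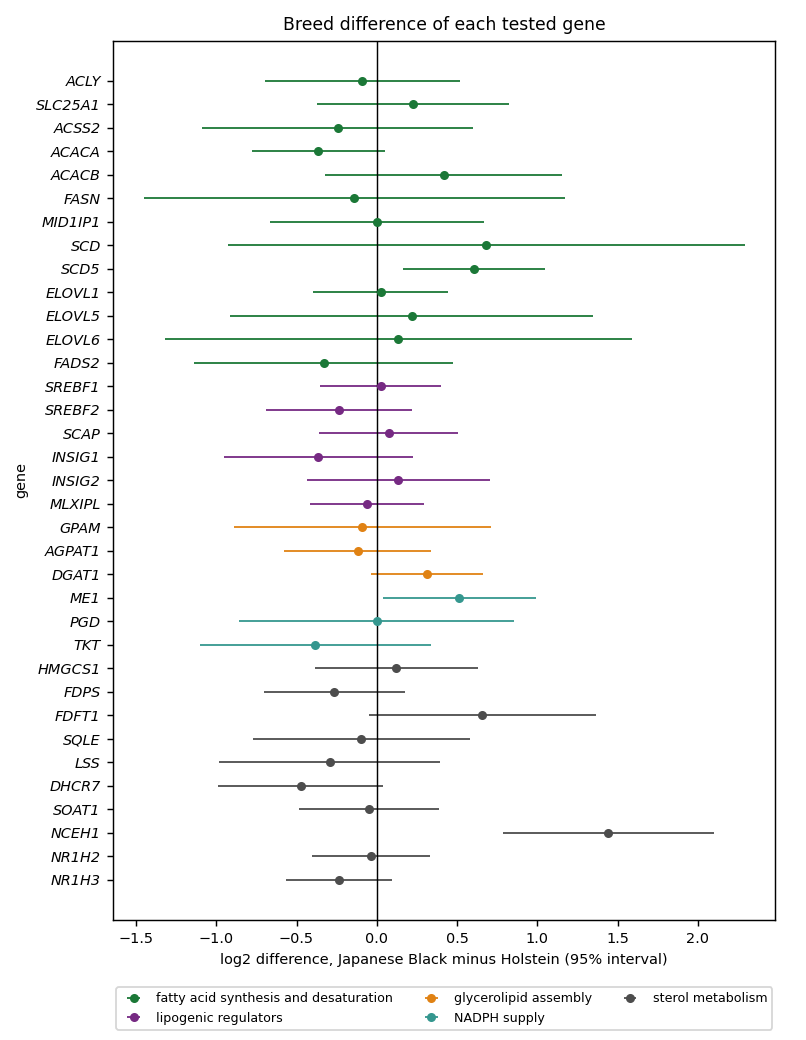
Log2 difference between the breeds (x axis, Japanese Black minus Holstein) for the 35 tested genes (y axis), with limma's 95% intervals as bars and the role group as colour. The intervals of NCEH1, SCD5 and ME1 lie above 0 before adjustment, and those of SCD, ELOVL6 and FASN are the widest of the fatty acid genes.

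Animals of the same breed differed widely in many of these genes. The within-breed SD on the log2 scale was above the median of all probe sets tested, 0.23, for 27 of the 35 genes. It was 1.28 for SCD, 1.15 for ELOVL6, 1.04 for FASN and 0.87 for ELOVL5, but 0.08 for DGAT1, 0.10 for NR1H3 and 0.13 for NR1H2. Japanese Black 3 had the highest signal of its breed for 26 of 35 genes, against 49.9% of all probe sets, and Holstein 3 had the lowest of its breed for 15 of 35, against 38.8%.

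**Figure D2:**
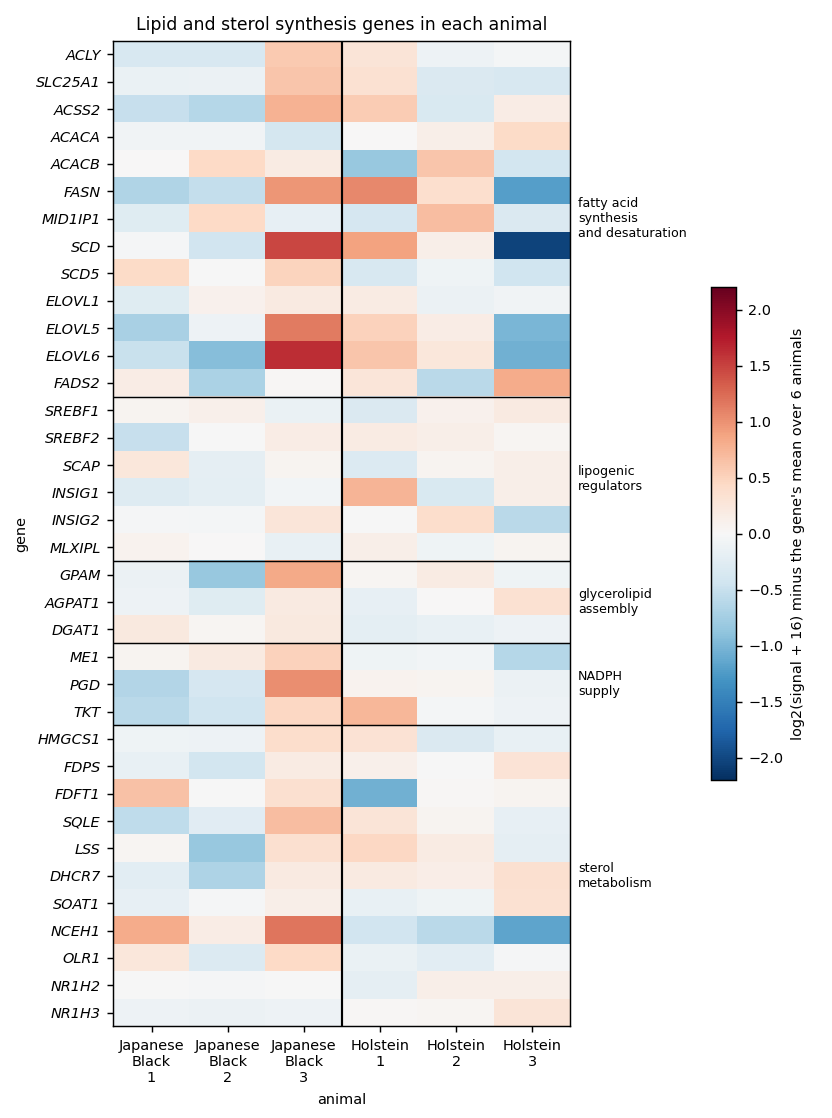
Heat map of the 36 genes (rows, grouped by role) in the 6 animals (columns), coloured by log2(signal + 16) minus the gene's own mean over the animals. SCD, ELOVL6, ELOVL5 and FASN are high in Japanese Black 3 and Holstein 1 and low in Holstein 3, whereas the rows of SREBF1, SCAP, MLXIPL, NR1H2 and NR1H3 are pale.

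FASN, the fatty acid synthase that builds palmitate, read 1275, 1412 and 3979 in Japanese Black 1, 2 and 3, against 4225, 2607 and 869 in Holstein 1, 2 and 3. The highest animal had 4.86 times the signal of the lowest, and both were Holsteins, so the breeds overlapped fully. FASN differed by -0.14 (SE 0.58, adjusted p 0.935), with a 95% interval of -1.45 to 1.17.

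SCD, the stearoyl-CoA desaturase that makes oleate and palmitoleate, had signals of 2438, 1853 and 6963 in Japanese Black and of 4615, 2711 and 597 in Holstein. Japanese Black 3 had 11.7 times the signal of Holstein 3, and of the animals between them Holstein 1 and 2 lay above Japanese Black 1 and 2. SCD differed by 0.68 (SE 0.71, adjusted p 0.694). Leaving out Japanese Black 3 gave 0.11 and leaving out Holstein 3 gave -0.16.

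The elongases divided in their behaviour. ELOVL6, which extends palmitate to stearate, read 30.0, 17.6 and 182 in Japanese Black and 81.9, 60.4 and 15.1 in Holstein. ELOVL5, which extends polyunsaturated fatty acids, read 249.6, 386 and 949.7 in Japanese Black and 605, 470.2 and 202 in Holstein. For both genes Japanese Black 3 was the highest of all animals and Holstein 3 the lowest, and Holstein 1 was the second highest. Their differences were 0.13 (SE 0.64) and 0.22 (SE 0.50). ELOVL1, an elongase of saturated very long chains, spanned only 77.5 to 113 in Japanese Black and 86.0 to 111 in Holstein.

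SCD5, a second stearoyl-CoA desaturase, did not follow SCD. It read 149.7, 106 and 158 in Japanese Black, against 79.99, 99.1 and 74.4 in Holstein. All 3 Japanese Black animals lay above all 3 Holstein animals, although Japanese Black 2 lay close to Holstein 2. The difference was 0.60 (SE 0.19), a 1.52-fold ratio on that scale, and did not pass (adjusted p 0.33).

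The carboxylases that make malonyl-CoA differed from one another. ACACA, the cytosolic form that feeds fatty acid synthesis, read 139, 139 and 109 in Japanese Black and 148, 163 and 202.5 in Holstein. Every Holstein animal was above every Japanese Black animal, and Japanese Black 3, the animal with the most SCD signal, had the least ACACA. The difference was -0.36 (SE 0.18, adjusted p 0.436), and -0.25 at its dimmer probe set, where the breeds overlapped. ACACB, the form at the mitochondrial membrane whose product restrains fatty acid oxidation, read 1211, 1642 and 1364 in Japanese Black and 669, 1853 and 901 in Holstein, a difference of 0.42 (SE 0.33). Holstein 1 and 2 lay at its extremes. MID1IP1, which promotes polymerisation of the carboxylase, read 2970.1, 4882 and 3163 in Japanese Black and 2764, 5760.2 and 2869.96 in Holstein. As with ACACB, animal 2 was the highest of each breed, and the MID1IP1 difference was 0.0016 (SE 0.29).

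The genes that provide acetyl-CoA shared their highest animals. For ACLY, which splits citrate, SLC25A1, which carries it out of the mitochondrion, and ACSS2, which activates acetate, Japanese Black 3 and Holstein 1 were the highest of their breeds. Differences were -0.09, 0.22 and -0.24, with adjusted p between 0.732 and 0.905. FADS2, a desaturase of polyunsaturated fatty acids, was dim, between 12.9 and 36.4 in Japanese Black and between 15.1 and 66.8 in Holstein (difference -0.33, SE 0.36).

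**Figure D3:**
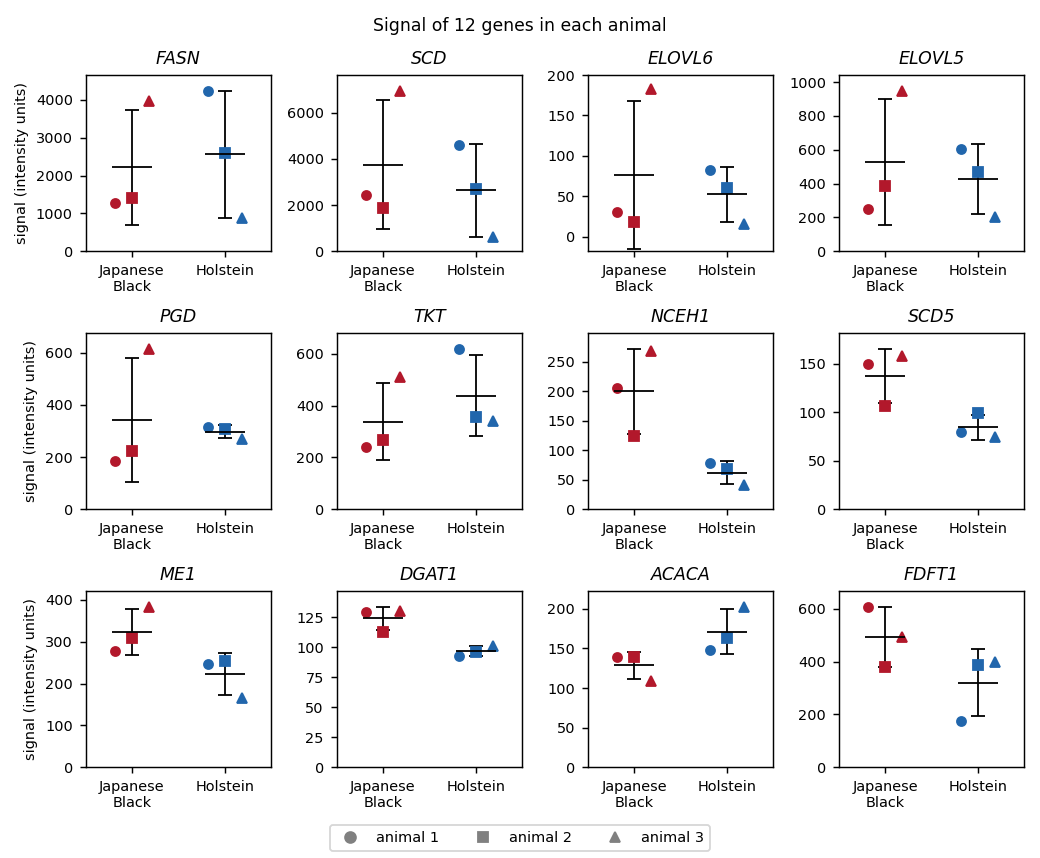
Signal in intensity units (y axis) of 12 genes in each animal, with Japanese Black left and Holstein right; symbols mark the animals, the horizontal bar the mean and the whiskers the SD (n = 3 each). FASN, SCD and ELOVL6 spread widely within both breeds, while NCEH1, SCD5, ME1, DGAT1 and ACACA separate them.

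The regulators had a median within-breed SD of 0.24 on the log2 scale, against 0.55 for the fatty acid enzymes. SREBF1, whose protein activates fatty acid synthesis genes, read 1921, 2003 and 1676 in Japanese Black and 1473, 1971 and 2107 in Holstein at its brightest probe set, a difference of 0.03 (SE 0.17, adjusted p 0.961). All 4 SREBF1 probe sets had differences between 0.03 and 0.19. Holstein 3, lowest for FASN and SCD, had the highest SREBF1 signal. SREBF2, whose protein drives cholesterol synthesis, read 59.5, 89.7 and 104 in Japanese Black and 105, 102 and 93.6 in Holstein (difference -0.24, SE 0.20). Its second probe set was dim, at 14.2 to 19.3 in Japanese Black and 28.8 to 33.1 in Holstein, without overlap. That probe set differed by -0.52 (limma unadjusted p 0.0061, adjusted p 0.312).

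INSIG1, which holds the SREBP precursor in the endoplasmic reticulum, read 201, 212.5 and 239 in Japanese Black and 428, 193 and 274 in Holstein. Holstein 1 was the highest animal for it, as for FASN and TKT, and the difference was -0.36 (SE 0.26, adjusted p 0.562). INSIG2, its relative, differed by 0.13 (SE 0.25), and all 3 of its probe sets lay between 0.13 and 0.48. SCAP, the escort that carries SREBP to the Golgi, had a difference of 0.07 at its brightest probe set. Of its 4 probe sets 2 lay above 0 and 2 below. MLXIPL, the carbohydrate response factor ChREBP, had a difference of -0.06. Across the 6 regulators 3 were above and 3 below 0, with a median of -0.02.

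Among the enzymes of glycerolipid assembly, DGAT1, which adds the last fatty acid of a triglyceride, was steady within each breed. It read 129, 113 and 129.9 in Japanese Black, against 92.5, 96.3 and 101 in Holstein. The breeds did not overlap, and the difference was 0.31 (SE 0.15, adjusted p 0.431). GPAM, which starts glycerolipid synthesis at the mitochondrion, read 841, 511 and 1659 in Japanese Black and 955, 1052 and 867 in Holstein. Its Japanese Black animals held both the lowest and the highest signal, with a difference of -0.09 (SE 0.35). AGPAT1, the next acyltransferase, differed by -0.12 (SE 0.20).

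Of the 3 genes grouped under NADPH supply, ME1, the cytosolic malic enzyme, read 277, 308 and 383 in Japanese Black, against 248, 255 and 167 in Holstein. The breeds did not overlap, and the difference was 0.51 (SE 0.21, adjusted p 0.383). Its other probe set gave -0.16 (SE 0.20), so the ME1 probe sets disagreed in direction. PGD, an oxidative enzyme of the pentose phosphate pathway, read 184, 224 and 615 in Japanese Black and 314, 308 and 268 in Holstein, a difference of -0.0015 (SE 0.38). TKT, the transketolase of that pathway, read 239, 267 and 510.5 in Japanese Black and 619.95, 355 and 341 in Holstein, a difference of -0.38 (SE 0.32). For all 3 genes Japanese Black 3 was the highest of its breed and Holstein 3 the lowest of its own.

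In sterol metabolism the member with the smallest p was NCEH1, which hydrolyses cholesterol esters and is best known from macrophages. Its brighter probe set read 206, 125 and 268.5 in Japanese Black, against 77.8, 67.7 and 40.3 in Holstein. The dimmer one read 128, 70.1 and 139.9 in Japanese Black, against 38.7, 16.3 and 10.0 in Holstein. At both probe sets all 3 Japanese Black animals lay above all 3 Holstein animals. The brighter one differed by 1.44 (SE 0.29, 95% interval 0.79 to 2.10), a 2.72-fold ratio, with an adjusted p of 0.195. The dimmer one differed by 1.80 (SE 0.31, adjusted p 0.144). Leaving out any 1 animal gave 1.21 to 1.72 at the brighter probe set.

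SOAT1, which makes the esters that NCEH1 splits, read 107, 121 and 137 in Japanese Black and 108, 114 and 161 in Holstein (difference -0.05, SE 0.19). OLR1, a scavenger receptor for oxidised lipoprotein, had signals of at most 10.6 in Japanese Black and 3.33 in Holstein, too dim for a fold to be given. Macrophage markers did not separate the breeds. Their summed signal over 11 markers was 735 to 1393 in Japanese Black and 670.0 to 1641 in Holstein, with 0 listed at 0, and 4 of 10 tested were above 0 in difference. Their part in the NCEH1 values was not tested.

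Genes of the cholesterol pathway itself did not share a direction. HMGCS1, which makes HMG-CoA, read 273, 269 and 389.7 in Japanese Black and 367, 231 and 258 in Holstein (difference 0.12, SE 0.22). FDFT1, the squalene synthase, read 607, 378 and 492 in Japanese Black and 174, 388 and 398 in Holstein. Its difference of 0.66 (SE 0.31, adjusted p 0.424) was 0.29 without Holstein 1, the animal with the lowest signal. SQLE, the squalene epoxidase, was dim, at 15.6, 23.1 and 58.4 in Japanese Black and 40.5, 32.4 and 25.2 in Holstein (difference -0.10, SE 0.30).

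FDPS, which makes farnesyl diphosphate, differed by -0.26 (SE 0.19). DHCR7, which completes cholesterol, read 76.6, 52.3 and 109 in Japanese Black and 109, 105 and 124 in Holstein, a difference of -0.47 (SE 0.23, adjusted p 0.424). The overlap rested on Japanese Black 3, which lay level with Holstein 1. LSS, the lanosterol synthase, had 3 dim probe sets of mixed direction, with -0.29 (SE 0.30) at the brightest.

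The liver X receptor genes were among the steadiest members. NR1H3, the receptor abundant in macrophages, liver and fat, read 699, 697 and 703 in Japanese Black, against 773, 784 and 931 in Holstein. The breeds did not overlap, yet the difference of -0.24 (SE 0.15, adjusted p 0.509) was small. Its second probe set differed by 0.19 (SE 0.16), in the opposite direction. NR1H2, the receptor found in most tissues, read 309 to 316 in Japanese Black and 273 to 347 in Holstein (difference -0.04, SE 0.16).

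Because fat cells express fatty acid synthesis genes strongly, the values were set beside markers of that cell type. Of 17 adipocyte markers 14 were on the array, none of them listed at 0. Their summed signal was 4181, 4555 and 15778 in Japanese Black 1, 2 and 3 and 8332, 12531 and 3639.6 in Holstein 1, 2 and 3. The mean log2 level of the markers was 0.83 above the mean of all animals in Japanese Black 3 and 0.51 above it in Holstein 2. It was 0.05 above it in Holstein 1, and -0.30, -0.50 and -0.61 relative to it in Japanese Black 2, Japanese Black 1 and Holstein 3. FABP4 alone gave 7635 of the sum in Japanese Black 3 and 6646 in Holstein 2. Of 13 tested markers 8 had a Pearson r above 0.8 with the level, of which they are part. Lower values were 0.64 for CIDEA, 0.25 for AQP7, 0.11 for RETN, -0.11 for ADRB3 and -0.12 for CFD. The markers did not divide by breed, with 7 of 13 tested above 0 in difference and a median of 0.0038. In whole tissue, fewer cells of a type and less RNA per cell cannot be told apart.

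Across the 6 animals the median Pearson r with the adipocyte level was 0.36 over the 35 genes and 0.18 over all probe sets tested. It was 0.42 for fibroblast and 0.36 for muscle fibre markers, but 0.22 for macrophage and 0.08 for endothelial markers. An r above 0.8 was found for 6 of 35 genes, against 6.80% of probe sets. The 6 were ELOVL5, ELOVL6, SQLE, PGD, FASN and INSIG2. ELOVL5 had r = 0.90 (exact permutation p 0.0153, adjusted 0.448) and rho = 0.94 (exact permutation p 0.0167, adjusted p 0.496), two-sided. ELOVL6 had r = 0.90 (exact permutation p 0.0181, adjusted p 0.458) and rho = 0.89 (exact permutation p 0.0333). FASN had r = 0.84 (exact permutation p 0.0528, adjusted p 0.559) and rho = 0.83 (exact permutation p 0.0583). For SQLE, PGD and INSIG2 r was 0.85, 0.85 and 0.83, with exact permutation p of 0.0347, 0.0194 and 0.0319 and rho of 0.77, 0.77 and 0.89. An exact permutation p of r under 0.05 was thus found for 5 of 35 genes, these 6 without FASN. The same held for 1596 of the 18012 probe sets tested. Adjustment covered 18012 correlations for each measure, and 0 of them passed, the smallest adjusted p being 0.352 for r and 0.365 for rho. The smallest exact p for r among them was 0.00139.

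Without Japanese Black 3 and Holstein 2, the animals farthest from the median marker level, r over the other 4 was 0.99 for ELOVL5, 0.97 for FASN, 0.85 for ELOVL6, 0.78 for SQLE, 0.65 for INSIG2 and 0.57 for PGD. For GPAM, by contrast, r was 0.75 over all 6 animals and 0.09 over the 4. SLC25A1 rose from 0.61 to 0.96 and HMGCS1 from 0.44 to 0.92. A high r over 4 animals was therefore not particular to the genes picked by their r over 6. With each breed's mean taken off, a choice made after the data were seen, r was 0.91 for ELOVL5, 0.90 for ELOVL6, 0.85 for FASN and 0.81 for SCD. ME1 then had r = 0.92 against 0.63 before, and ACACA had -0.85 against -0.58. At their dimmer probe sets ME1 had only 0.49 against 0.45, and ACACA had -0.84 against -0.79. Over the 6 animals r was -0.47 for SREBF1 and -0.78 for MLXIPL, and over the 4 it was -0.91 and 0.57.

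**Figure D4:**
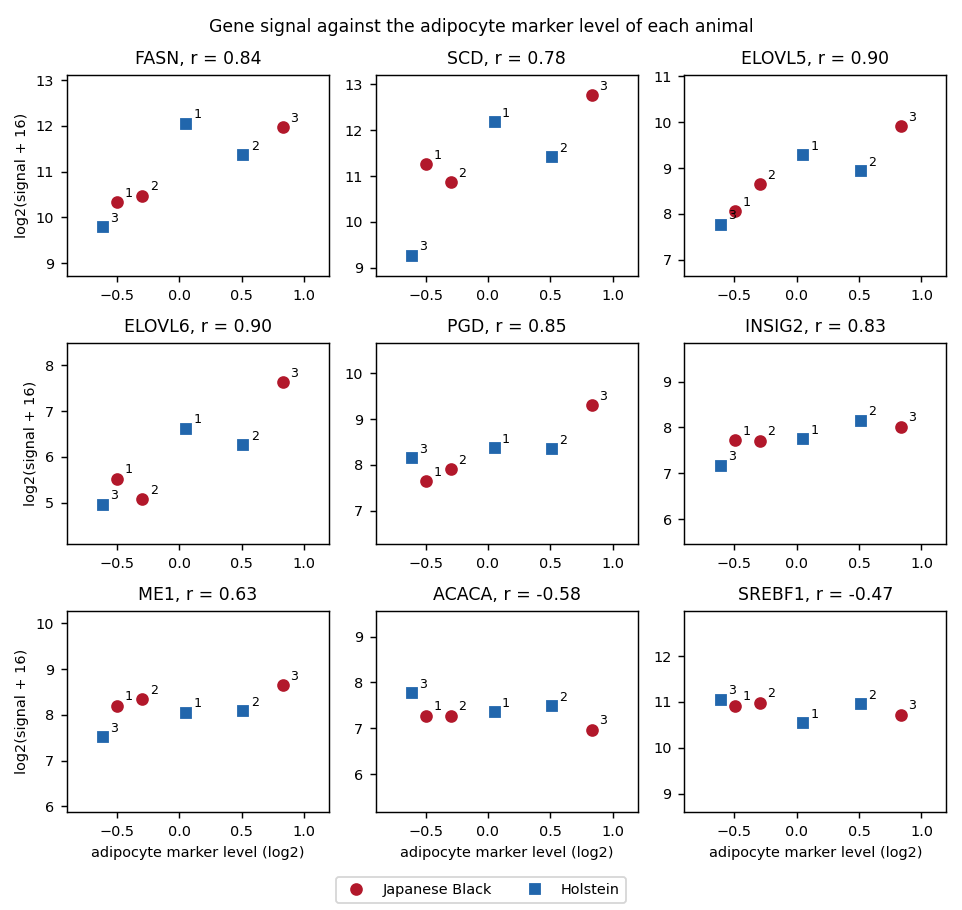
Log2(signal + 16) of 9 genes (y axes, each spanning the same range) against the mean log2 level of the adipocyte markers relative to all animals (x axis), numbered by animal. ELOVL5, ELOVL6 and FASN are high in Japanese Black 3 and lie along the marker level, while SREBF1 and ACACA do not climb with it. PGD is also high in Japanese Black 3, but Holstein 3, with the lowest marker level, lies above Japanese Black 1 and 2.

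Endothelial and fibroblast markers were mostly below 0 in difference, where 51.0% of all probe sets were above 0, and none of these markers passed the adjusted threshold in limma. Unadjusted p was under 0.05 in limma for 2 of 10 endothelial and 1 of 8 fibroblast markers, all toward Holstein. In that direction the same held for 951 of the 18012 probe sets tested. Endothelial markers had 1 of 10 above 0, a median difference of -0.30 and summed signals of 2289.5 to 3560.2 in Japanese Black and 3229.6 to 4119.6 in Holstein, with 0 listed at 0. Fibroblast markers had 1 of 8 above 0, a median of -0.31 and summed signals of 7451 to 13249 in Japanese Black and 10256 to 11426 in Holstein, with 0 listed at 0. Their part in the values above was not tested.

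With the adipocyte level as a covariate, also chosen after the data were seen, the differences of the separated genes were nearly the same. NCEH1 then had 1.43 (limma adjusted p 0.12, in a range of 0.12 to 0.526 over all settings), SCD5 0.60, ME1 0.50, DGAT1 0.31 and ACACA -0.36, and again 0 members passed. The marker level itself did not divide by breed, so this covariate could move a breed difference only little. The part of fat cells in these differences was not tested.

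Further genes of the same pathways gave no call either. For the counts that follow, 51.0% of all probe sets were above 0. In the fatty acid and NADPH list, 9 of 15 tested genes were above 0 and 6 below, with a median of 0.06. OXSM (0.42), an enzyme of mitochondrial fatty acid synthesis, FADS3 (-0.33), a desaturase, and ME2 (-0.49), the mitochondrial malic enzyme, had its smallest p. Of 10 further glycerolipid genes 8 were above 0 and 2 below, with a median of 0.11, led by the acyltransferases AGPAT5 (0.57) and AGPAT2 (0.37) and by GPD1 (-0.15), which makes the glycerol phosphate backbone. Of 19 further sterol genes 6 were above 0 and 13 below, with a median of -0.08, led by TM7SF2 (0.28), a sterol reductase, NPC2 (-0.31), a lysosomal cholesterol carrier, and MYLIP (-0.20), a ubiquitin ligase for the low-density lipoprotein receptor. In limma 0 of these genes passed the adjusted threshold, and 1, OXSM, had an unadjusted p under 0.05, toward Japanese Black. Over all probe sets 7.31% had one in that direction.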

How the data were processed

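Total RNA of 6 muscles was labelled and hybridised to 1 Affymetrix array each, per the labels' protocols. The deposited values are linear intensity per probe set; per the submitters' processing notes the software was Affymetrix Expression Console 1.1 with GCOS 1.1.1. Algorithm and scaling were not given in the sources used here. From the deposited intensity values, 112 control probe sets were left out, leaving 24016; 16 was added, log2 taken, and the dimmest 25% by mean left out, leaving 18012. The breed comparison used limma 3.58.1 (eBayes with intensity trend; R 4.3.3), two-sided, unpaired, with Benjamini-Hochberg adjustment. The replicate numbers only name the animals. Whether the arrays came from separate extractions beyond the separate animals is not stated.

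Names came from the platform annotation; 1 gene symbol was given for 13292 probe sets, several for 86 and none for 10638, and RefSeq assembly ARS-UCD2.0 changed 0 symbols of the 13263 with a matching gene identifier. The genes and lists were chosen with earlier results of these data known. All members on the array are named; values per animal are given for main enzymes and regulators and for genes with an unadjusted p under 0.05 or no overlap, other members' values being additions; up to 3 genes of smallest p are named per further list. Marker lists covered adipocytes, macrophages, endothelium, fibroblasts and muscle fibres. Simulated data served to test this fit. Figures used matplotlib 3.10.9 in Python 3.11.15. The alternatives were offsets of 1 and 64, other filters and scalings, other variance models, the plain t-test, the mean of a gene's probe sets, and leaving out each array.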

Additional observations from a re-analysis of the deposited data

How the results depend on the processing

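None of the 35 tested genes passed the adjusted threshold in any of the 11 other settings or the 6 fits without 1 animal, wherever it was tested. With the dimmer 50% left out, ELOVL6, FADS2, LSS and SQLE were not tested. The plain t-test called 0 of them after adjustment and, at an unadjusted p under 0.05, 3 toward Japanese Black (DGAT1, NCEH1 and SCD5) and 1 toward Holstein (NR1H3). Over all probe sets limma called 3. The number was 0 with an offset of 1, with the dimmer 50% left out and with the plain t-test, which had 966 and 840 by direction without adjustment, and 10 with array weights. It was 0 without each Japanese Black animal, 1 without Holstein 3, 2 without Holstein 1 and 15 without Holstein 2. Of the 35 genes 14 kept their sign in every setting where they were tested, among them NCEH1, SCD5, ME1, DGAT1, ACACA and NR1H3. The other 21 changed sign when some animal was left out. Log2 differences then ran over -0.51 to 0.32 for PGD, -0.40 to 0.065 for ACLY, -0.69 to 0.0090 for ACSS2, -0.070 to 0.16 for ELOVL1, -0.30 to 0.63 for ELOVL5 and -0.64 to 0.64 for ELOVL6. Further such ranges were -0.78 to 0.35 for FASN, -0.22 to 0.34 for MID1IP1, -0.16 to 1.30 for SCD, -0.023 to 0.44 for SLC25A1, -0.25 to 0.022 for AGPAT1 and -0.53 to 0.30 for GPAM. For other genes they were -0.13 to 0.37 for INSIG2, -0.13 to 0.0075 for MLXIPL, -0.057 to 0.19 for SCAP, -0.13 to 0.13 for SREBF1, -0.044 to 0.31 for HMGCS1 and -0.55 to 0.051 for LSS. The remaining ones were -0.14 to 0.020 for NR1H2, -0.15 to 0.11 for SOAT1 and -0.46 to 0.16 for SQLE. Medians without 1 animal ran over -0.24 to 0.063 for all members, -0.26 to 0.16 for fatty acid synthesis and desaturation, -0.25 to 0.30 for glycerolipid assembly. They ran over -0.51 to 0.32 for NADPH supply, -0.089 to 0.021 for lipogenic regulators and -0.18 to -0.0071 for sterol metabolism. With an offset of 64 the sign turned for PGD (0.018). After quantile normalization the sign turned for MID1IP1 (-0.016), SCAP (-0.0094), SREBF1 (-0.054). After median centring the sign turned for PGD (0.014). With array weights the sign turned for ELOVL1 (-0.027), ELOVL5 (-0.25), ELOVL6 (-0.54), SCD (-0.063), INSIG2 (-0.044), HMGCS1 (-0.00051). With the adipocyte level as covariate the sign turned for MID1IP1 (-0.0048). With the mean of all probe sets the sign turned for SCAP (-0.0064). ME1 was 0.18 and NR1H3 -0.020 with the mean of all probe sets. The cause was not tested. No paired analysis was possible because the labels name no pairs of animals, although a paired t-test stands in the series design.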

Other observations

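A pair of lipid genes outside the list, chosen after their values were seen, were highest in Japanese Black 3 and lowest in Holstein 3, as were ELOVL5 and ELOVL6. DGAT2, the other enzyme that completes triglycerides, read 526, 633 and 2623 in Japanese Black and 1123, 1485 and 297.5 in Holstein. Its r with the adipocyte level was 0.98 across the 6 animals (exact permutation p 0.00139, the smallest that 6 animals allow; adjusted p 0.352), rho was 1 (exact permutation p 0.00278) and r without Japanese Black 3 and Holstein 2 was 0.96. DGAT1 had r = 0.07. THRSP, a lipogenic protein of fat and liver related to MID1IP1, read 269, 420.1 and 1801 in Japanese Black and 1182, 803 and 92.1 in Holstein, with r = 0.88 (exact permutation p 0.0236, adjusted p 0.475), rho = 0.94 (exact permutation p 0.0167) and r = 0.97 without those animals. MID1IP1 had r = 0.29 over the 6 animals and 0.0087 without those animals. The differences between the r of these pairs were not tested.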
